A study of Mus musculus with 2 samples.

Results

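The 10 immediate early genes Fos, Fosb, Jun, Junb, Jund, Egr1, Atf3, Ier2, Dusp1 and Nr4a1 were followed across the cells of the mouse choroid and retinal pigment epithelium (RPE). They are 10 of the 32285 genes in the deposited matrices and were chosen by name. Their level, the share of cells with a transcript and the spread between cells are given for 6 cell classes in each of 2 libraries.

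Both libraries came from wild-type ICR mice aged 8 weeks, an albino outbred stock, and formed a single group with no treatment or genotype contrast. Each library pooled the choroids of 1 male and 1 female. Minced tissue was digested for 2 h in 1 mg/ml collagenase A with 1 µM of the compound the labels call Y27362, then for 30 min in 0.25% trypsin with 100 units/ml DNase, and passed through a 40 µm filter before 10000 cells were loaded for 10x Genomics 3′ sequencing. No undigested control is among these samples. Transcripts present before dissection and those made during digestion therefore cannot be told apart, and every comparison below is between cell classes that went through the same digestion.

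Immediate early genes are transcribed within minutes of a stimulus, from factors already present in the cell such as SRF with its ELK partners and CREB, so that no new protein is needed. Many of the products are transcription factors: FOS and JUN proteins pair to form AP-1, EGR1 is a zinc-finger factor and NR4A1 an orphan nuclear receptor. Others, such as the phosphatase DUSP1, switch the upstream kinases off again. The messages are short-lived, and enzymatic dissociation is known to induce them in many tissues.

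The libraries held 91741168 and 149570817 unique molecular identifiers (UMIs, each standing for 1 captured transcript). Barcodes with at least 1000 UMIs, 500 genes and at most 20% mitochondrial UMIs numbered 8497 and 13401, and 31 barcode sequences occurred in both libraries. A barcode was put in the class whose 3 genes gave it the most UMIs, with at least 5 and ties left out, which classed 20436 of the 21898. Library 1 gave 4095 fibroblast-like, 1407 melanocyte-like, 304 RPE-like, 465 endothelial-like, 1118 mural-like and 430 macrophage-like cells, and library 2 gave 6278, 2249, 902, 609, 1713 and 866. The 4 further markers of each class that the rule did not use summed to between 3567 and 68586 CPM (UMIs of a gene relative to all UMIs of the class and library, scaled to 1e6). Of the RPE markers, Ttr alone gave 61567 and 61565 CPM, while Best1 was near 0 in RPE-like cells (2 and 10 UMIs) and no higher there than in fibroblast-like cells. Many barcodes carried genes of more than 1 class. RPE-like cells carried at least 5 UMIs of a second class in 92.4% and 91.4% of barcodes, mostly of Dct, Pmel and Mlana, pigment cell genes of which RPE itself is known to express several, and mural-like cells did so in 33.4% and 45.8%, mostly of fibroblast genes. Expression by the cell itself and transcripts of a second cell were not told apart. Scrublet marked 2.55% and 5.22% of all barcodes as doublets, and 4.61% and 9.20% of the RPE-like ones.

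Promoter sequence is shown for 5 of the genes because their class patterns, given next, set them apart from each other: Fos with its uneven spread, Fosb with its melanocyte-like level, and Junb, Dusp1 and Nr4a1 with their low RPE-like level. The set of RefSeq (GRCm38.p6) promoters used here held 8 of the 10 genes. Egr1 and Ier2 were not in it, so their promoters were not searched. The runs hold the bases upstream of the start site, 5′ to 3′ on the gene's strand, without any base that a GENCODE exon covers. Capitals mark the CRE core TGACG (reverse CGTCA), the full cAMP response element TGACGTCA, the EGR site GCGNGGGCG on either strand, and TATAAA.
Fos, chr12:85473640-85473889, plus strand: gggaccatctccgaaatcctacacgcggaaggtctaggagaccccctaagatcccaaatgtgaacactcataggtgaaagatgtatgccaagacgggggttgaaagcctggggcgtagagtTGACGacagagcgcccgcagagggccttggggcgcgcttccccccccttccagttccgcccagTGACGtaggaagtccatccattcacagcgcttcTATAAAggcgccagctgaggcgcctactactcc
Fosb, chr7:19310052-19310295, minus strand: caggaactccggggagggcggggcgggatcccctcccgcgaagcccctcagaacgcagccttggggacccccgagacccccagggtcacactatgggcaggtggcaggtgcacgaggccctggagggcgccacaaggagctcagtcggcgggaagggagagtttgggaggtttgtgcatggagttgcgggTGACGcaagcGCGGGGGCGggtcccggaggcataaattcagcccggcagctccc
Junb, chr8:84978749-84978998, minus strand: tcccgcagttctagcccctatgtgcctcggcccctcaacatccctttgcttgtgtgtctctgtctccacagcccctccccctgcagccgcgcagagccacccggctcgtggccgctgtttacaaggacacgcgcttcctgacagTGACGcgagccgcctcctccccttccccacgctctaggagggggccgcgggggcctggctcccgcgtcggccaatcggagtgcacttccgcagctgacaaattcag
Dusp1, chr17:26508520-26508722, minus strand: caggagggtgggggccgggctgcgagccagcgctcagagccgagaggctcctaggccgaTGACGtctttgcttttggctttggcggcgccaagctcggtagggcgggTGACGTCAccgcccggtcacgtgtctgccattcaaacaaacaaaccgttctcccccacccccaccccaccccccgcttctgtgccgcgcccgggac
Nr4a1, chr15:101266596-101266845, plus strand: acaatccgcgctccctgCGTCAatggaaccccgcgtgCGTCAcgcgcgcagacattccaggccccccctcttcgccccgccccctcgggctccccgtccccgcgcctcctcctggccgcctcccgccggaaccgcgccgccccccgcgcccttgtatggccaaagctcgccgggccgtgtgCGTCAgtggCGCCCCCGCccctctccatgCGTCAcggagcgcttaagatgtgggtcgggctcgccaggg

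In the 250 bases before the start site, searched on both strands, TGACG occurred in 6 of the 8 listed genes (Fos, Fosb, Junb, Atf3, Dusp1 and Nr4a1), against 17.9% of 27025 RefSeq promoters. Fos held it at 2 places and Nr4a1 at 4. The full element TGACGTCA occurred in Dusp1 alone of the 8, against 1.62% of promoters, and 2 of the TGACG matches of Dusp1 lie inside it. The EGR site occurred in Fosb and Nr4a1 (4.65% of promoters) and TATAAA in Fos (13.0%). The AP-1 site TGANTCA (6.87% of promoters) and the CArG box (1.40%) matched none of the 8 in this window. For Jund the window, chr8:70697489-70697738, does not adjoin the GENCODE start of the gene at 70698949. The windows of Atf3, Dusp1 and Nr4a1 lie inside the gene spans given below. The TGACG match of Atf3 lies in bases that a GENCODE exon covers. These are matches of letters and were not tested for binding.

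The 10 genes did not follow a common class pattern. UMIs were summed per class and library, scaled to CPM with TMM factors, and each class was set against the mean of the other 5 with edgeR's quasi-likelihood test. A gene was called where the Benjamini-Hochberg adjusted p over 15420 genes was below 0.05 and the log2 difference at least 1 in size. All 10 genes passed the count filter, and 24 of the 60 gene and class differences were called. The libraries are pools of different mice with n = 2, so the p-values measure the spread between these 2 libraries and their classes.

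**Figure D1:**
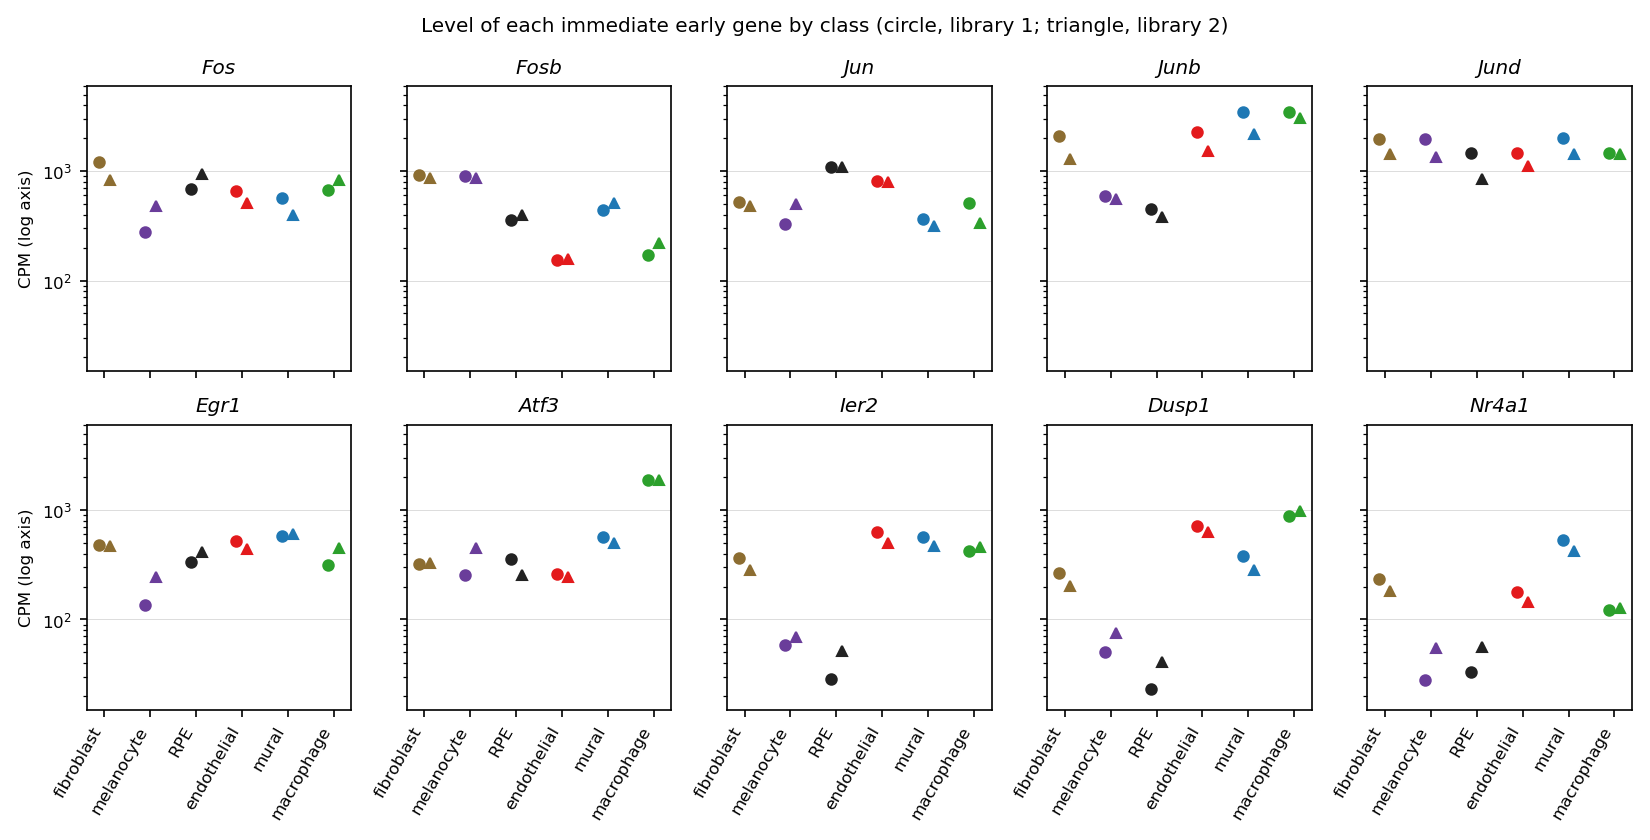
Level of each gene in CPM (log axis) in the 6 classes, circles for library 1 and triangles for library 2. Dusp1, Ier2 and Nr4a1 sit below 100 CPM in both melanocyte-like and RPE-like cells, while Jund stays between 846 and 1988 CPM in all of them.

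Melanocyte-like and RPE-like cells had the most genes called lower. In melanocyte-like cells 5 of 10 were lower (Junb, Egr1, Ier2, Dusp1, Nr4a1) and 1 higher (Fosb), where 11.3% and 14.5% of all genes were. In RPE-like cells 4 were lower (Junb, Ier2, Dusp1, Nr4a1) and 1 higher (Jun), where 24.6% and 26.1% of all genes were, so calls are common in that class. Macrophage-like cells had 4 higher (Junb, Atf3, Ier2, Dusp1) and 1 lower (Fosb), beside 19.5% and 21.3%. Mural-like cells had 3 higher (Junb, Ier2, Nr4a1) and 0 lower, beside 14.6% and 10.4%. Endothelial-like cells had 2 higher (Ier2, Dusp1) and 2 lower (Fosb, Atf3), beside 15.4% and 20.8%. Fibroblast-like cells had 1 higher (Fosb) and 0 lower, beside 18.2% and 8.74%. Some of these counts moved with the choice of cells. Without barcodes of mixed class, Fos, Junb, Ier2 and Nr4a1 joined Fosb in fibroblast-like cells, and Egr1 and Dusp1 brought mural-like cells to 5. Of the 14136 genes tested there, 3230 and 2724 were higher in these 2 classes. Nr4a1 also reached a call in endothelial-like cells without barcodes of mixed class (1.21), and Dusp1 in mural-like cells without doublets (just past the size set). Nr4a1 joined in fibroblast-like cells without doublets, and Fos and Nr4a1 with each cell thinned to 2000 UMIs. At an unadjusted p below 0.05, 1 of 10 genes was lower in fibroblast-like cells (Atf3, beside 28.1% of all genes) and 1 of 10 in mural-like cells (Jun, beside 28.2%). The median log2 difference of the 10 genes was -1.10 in melanocyte-like and -0.57 in RPE-like cells, and between 0.14 and 0.50 in the other 4 classes. Over all genes tested it lay between -0.17 and -0.01.

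**Figure D2:**
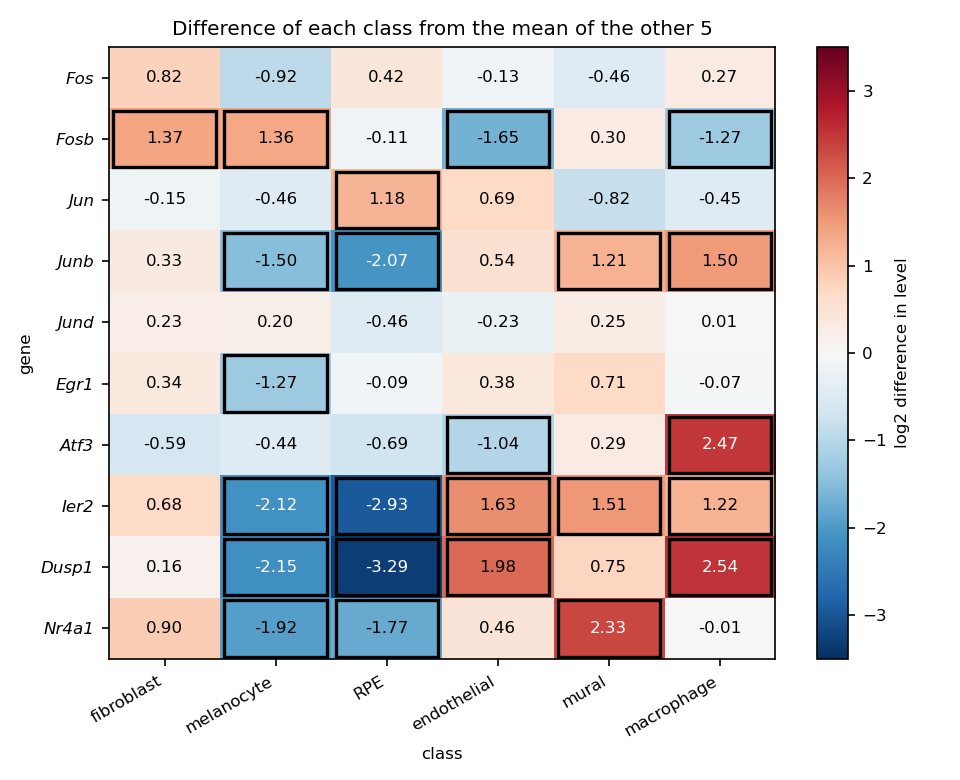
Log2 difference of each class from the mean of the other 5 for the 10 genes, with black frames on the 24 called differences. Framed blue squares gather in the melanocyte and RPE columns for Junb, Ier2, Dusp1 and Nr4a1, and Fosb is framed on red in fibroblast and melanocyte and on blue in endothelial and macrophage.

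Fos (chr12:85473890-85477273), the AP-1 component that gave the FOS family its name, was called in no class. It reached 1206 and 837 CPM in fibroblast-like cells, 686 and 939 in RPE-like, 666 and 828 in macrophage-like, 664 and 516 in endothelial-like, 574 and 401 in mural-like and 276 and 476 in melanocyte-like cells, in libraries 1 and 2. Melanocyte-like and mural-like cells were the 2 lowest classes in both libraries, and their values overlapped. The highest geometric mean (from log2 CPM) was 2.77-fold the lowest. No 2 neighbours in the order of these means differed in the class pair tests. The log2 difference of fibroblast-like cells was 0.82 ± 0.24 (SE), with an edgeR adjusted p of 0.0218 but below the size set for a call. That of melanocyte-like cells was -0.92 ± 0.28 (adjusted p 0.0245), and it reached a call with at most 10% mitochondrial UMIs (-1.16) and with each cell thinned to 2000 UMIs before summing (-1.05).

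Fosb (chr7:19302696-19310051), a FOS paralog, divided the classes more sharply. It stood at 919 and 859 CPM in fibroblast-like cells and at 907 and 863 CPM in melanocyte-like cells. Mural-like cells gave 444 and 516 CPM and RPE-like cells 360 and 395 CPM. Endothelial-like cells gave 152 and 158 CPM and macrophage-like cells 171 and 218 CPM. The 2 high classes lay above all others in both libraries without overlap, and the 2 low classes below all others. Log2 differences were 1.37 ± 0.09 in fibroblast-like and 1.36 ± 0.09 in melanocyte-like cells (edgeR adjusted p 7.6e-08 and 9.2e-08). They were -1.65 ± 0.12 in endothelial-like and -1.27 ± 0.12 in macrophage-like cells (8.4e-08 and 7.3e-07). Fosb was the 1 gene called higher in melanocyte-like cells, in which Junb and Egr1 were called lower.

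Jun (chr4:95049034-95052222), the main partner of FOS in AP-1, was highest in RPE-like cells at 1080.3 and 1080.4 CPM. Endothelial-like cells followed at 821 and 803 CPM, and the other 4 classes lay between 317 and 524 CPM with overlapping libraries. The log2 difference of RPE-like cells was 1.18 ± 0.15 (edgeR adjusted p 2.2e-05). The pair of RPE-like and endothelial-like cells was not told apart (adjusted p 0.102). Deep cells weigh more in the sums: with each cell thinned to 2000 UMIs before summing, the log2 difference was 0.79 and no longer called, and without barcodes of mixed class it was 0.46 (adjusted p 0.10).

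Junb (chr8:84974484-84978718), a JUN paralog that often counteracts JUN, had another order of classes. It reached 3477 and 3058 CPM in macrophage-like cells and 3443 and 2207 CPM in mural-like cells. Before TMM scaling mural-like cells stood above macrophage-like cells, at 3487 and 2632 CPM against 2513 and 2570. Endothelial-like cells gave 2276 and 1537 CPM and fibroblast-like cells 2116 and 1286 CPM. Melanocyte-like cells gave 590 and 557 CPM and RPE-like cells 455 and 378 CPM. Those 2 classes lay below every value of the other 4. Log2 differences were 1.501 ± 0.11 in macrophage-like and 1.21 ± 0.11 in mural-like cells, and -1.502 ± 0.14 and -2.07 ± 0.15 in melanocyte-like and RPE-like cells (edgeR adjusted p between 3.7e-08 and 1.8e-06). Junb and Jun thus had their highest and lowest classes in different places, with RPE-like cells at the top for Jun and at the bottom for Junb.

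Jund (chr8:70698949-70700616), the JUN paralog known for steady expression in resting cells, varied least. It ranged from 846 to 1988 CPM over the 12 class and library values, and the highest geometric mean was 1.52-fold the lowest. It was called in no class. Its largest difference was -0.46 ± 0.12 in RPE-like cells (edgeR adjusted p 0.0045), which became -1.79 and a call in the few RPE-like cells left without barcodes of mixed class.

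Atf3 (chr1:191170296-191218039), a stress-induced factor of the ATF and CREB family, was highest in macrophage-like cells. There it stood at 1898 and 1888 CPM, against 572 and 504 CPM in mural-like cells and 242 to 451 CPM in the other 4 classes. Macrophage-like cells lay above every other value in both libraries, with a log2 difference of 2.47 ± 0.16 (edgeR adjusted p 3.2e-07). Endothelial-like cells, at 258 and 242 CPM, were called lower at -1.04 ± 0.20 (adjusted p 0.00135), close to the size set for a call. That call was lost without TMM scaling (-0.87), with at most 10% mitochondrial UMIs (-0.99), without barcodes of mixed class (-0.73) and with thinned cells (-0.94).

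Egr1 (mouse chromosome 18), the zinc-finger factor, was called in melanocyte-like cells only. They gave 137 and 246 CPM, where the other 5 classes gave 313 to 603 CPM. The melanocyte-like values lay below all others, with a log2 difference of -1.27 ± 0.19 (edgeR adjusted p 0.000158). Mural-like cells were highest at 575 and 603 CPM (0.71 ± 0.16, below the size set for a call).

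Nr4a1 (chr15:101254269-101274795), the orphan receptor, was highest in mural-like cells at 531 and 419 CPM. Fibroblast-like cells gave 232 and 183 CPM, endothelial-like cells 179 and 145 CPM and macrophage-like cells 122 and 126 CPM. Melanocyte-like cells gave 28.2 and 54.5 CPM and RPE-like cells 33.02 and 56.5 CPM. Mural-like cells lay above all others and differed from their neighbour, the fibroblast-like cells (adjusted p 0.0299). Log2 differences were 2.33 ± 0.23 in mural-like, -1.92 ± 0.31 in melanocyte-like and -1.77 ± 0.31 in RPE-like cells (edgeR adjusted p 7.4e-05, 0.00116 and 0.00101).

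Ier2 (chr8:84661331-84662852), a small growth-factor-induced nuclear protein, was high in vascular cells. Endothelial-like cells gave 624 and 496 CPM, mural-like cells 572 and 473 CPM and macrophage-like cells 422 and 460 CPM. Fibroblast-like cells gave 362 and 285 CPM, melanocyte-like cells 59.0 and 69.0 CPM and RPE-like cells 28.5 and 51.1 CPM. The top geometric mean was 14.6-fold the lowest. The 4 highest classes were not told apart as neighbours, while the steps from fibroblast-like to melanocyte-like and from there to RPE-like cells were (adjusted p 3.7e-05 and 0.0439). Log2 differences ran from 1.63 ± 0.17 in endothelial-like to -2.93 ± 0.25 in RPE-like cells (edgeR adjusted p 2.2e-05 and 2.0e-06).

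Dusp1 (chr17:26505590-26562128), the phosphatase that inactivates MAP kinases and so acts as feedback on the pathway, had the widest range of the 10. Macrophage-like cells gave 884 and 990 CPM and endothelial-like cells 723 and 628 CPM. Mural-like cells gave 380 and 285 CPM and fibroblast-like cells 268 and 204 CPM. Melanocyte-like cells gave 50.2 and 74.8 CPM and RPE-like cells 23.1 and 41.0 CPM. On the TMM scale the order of the 6 classes was the same in both libraries, and the top geometric mean was 30.4-fold the lowest. Before TMM scaling, endothelial-like cells stood above macrophage-like cells in library 1 (753 against 639 CPM) and below them in library 2 (729 against 831). Log2 differences were 2.54 ± 0.19 in macrophage-like, 1.98 ± 0.20 in endothelial-like, -2.15 ± 0.27 in melanocyte-like and -3.29 ± 0.29 in RPE-like cells (edgeR adjusted p between 4.2e-06 and 0.000167).

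Class pairs were also tested one by one at an edgeR adjusted p below 0.05, and 93 of the 150 gene and pair differences passed. RPE-like cells differed from mural-like cells in 9 of 10 genes (70.6% of all genes), from melanocyte-like in 8 (62.3%), from macrophage-like in 8 (68.9%), from fibroblast-like in 7 (72.7%) and from endothelial-like in 5 (70.6%). Melanocyte-like cells differed from macrophage-like in 8 (61.1%), from endothelial-like in 7 (62.1%), from fibroblast-like in 6 (58.2%) and from mural-like in 6 (55.5%). Endothelial-like cells differed from mural-like in 7 (49.2%), from fibroblast-like in 5 (56.9%) and from macrophage-like in 3 (54.1%). Fibroblast-like cells differed from mural-like in 5 (34.8%) and from macrophage-like in 4 (63.3%), and mural-like from macrophage-like in 5 (59.6%). On the TMM scale the top class did not change between libraries for 8 of the 10 genes. It did for Fos and Fosb. Before TMM scaling it changed for Jund and Dusp1 instead.

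Free RNA from broken cells gives UMIs in any barcode, and no class is known to lack these genes. Barcodes with at most 100 UMIs held 4.90% and 4.11% of all UMIs, and in them the 10 genes stood at 0.614 to 1.07 of their level in all kept cells. From rod photoreceptor genes, free RNA was estimated at 0.288% and 2.09% of the UMIs in RPE-like cells and at 0.901% and 2.999% in melanocyte-like cells. That would give at most 13.5% of the Dusp1, Ier2 and Nr4a1 counts in those 2 classes. The estimate does not cover transcripts of a second cell in the same barcode. In melanocyte-like cells of library 1 without barcodes of mixed class, Nr4a1 stood at 11.6 CPM before TMM scaling, against 28.9 in all. Dusp1 stood at 23.4 against 51.5 and Ier2 at 29.3 against 60.4. The part of second cells was not tested. In macrophage-like cells, with 12.7% and 7.73% free RNA, it would give 48.3% and 25.1% of the Fosb counts. The estimate for mural-like cells was 3.35% and 15.1%. In library 2 that would give 18.7% of their Fos, 18.1% of their Jun and 14.6% of their Fosb counts. With the free RNA profile subtracted, none of the 60 calls changed.

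Shares of cells with a UMI were compared after every cell was thinned to 2000 UMIs, since median depth ran from 6082 UMIs in mural-like to 26254 in RPE-like cells of library 1. Cells under 2000 UMIs were left out, 225 and 333 in all. Junb had a UMI in 89.7% and 89.6% of mural-like and 90.8% and 91.2% of macrophage-like cells, but in 27.5% and 25.1% of RPE-like cells. Dusp1 had a UMI in 62.1% and 55.9% of endothelial-like cells and in 3.39% and 5.82% of RPE-like cells. Nr4a1 had one in 52.9% and 51.9% of mural-like cells and in 3.06% and 8.25% of melanocyte-like cells. For Fosb and Jun, these shares and the summed, TMM-scaled CPM gave different orders. Deep cells weigh more in the sums, and the TMM factors differ between classes. The parts of depth and scaling were not tested. Fosb was nearly equal in TMM-scaled CPM in fibroblast-like and melanocyte-like cells. Before TMM scaling it stood at 881 and 965 CPM in the former and 930 and 1060 in the latter, the order of its shares. It was found in 49.0% and 53.8% of the former and 69.1% and 65.5% of the latter. Jun was highest in CPM in RPE-like cells, also before TMM scaling (953 and 1012, against 855 and 931 in endothelial-like cells). Yet it was found in 47.1% and 35.5% of RPE-like cells, against 66.7% and 70.6% of endothelial-like cells. Mean UMIs of the same thinned cells followed the order of the shares for both genes in these classes. Fosb averaged 1.595 and 1.779 UMIs in fibroblast-like and 1.753 and 2.036 in melanocyte-like cells. Jun averaged 1.63 and 1.42 UMIs in RPE-like and 1.65 and 1.90 in endothelial-like cells. Averaged over the 10 genes, the share was 52.9% in mural-like, 50.7% in endothelial-like, 45.1% in fibroblast-like, 44.6% in macrophage-like, 33.2% in melanocyte-like and 23.4% in RPE-like cells. Without thinning these were 73.6%, 74.1%, 70.3%, 61.8%, 53.7% and 45.9%.

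**Figure D3:**
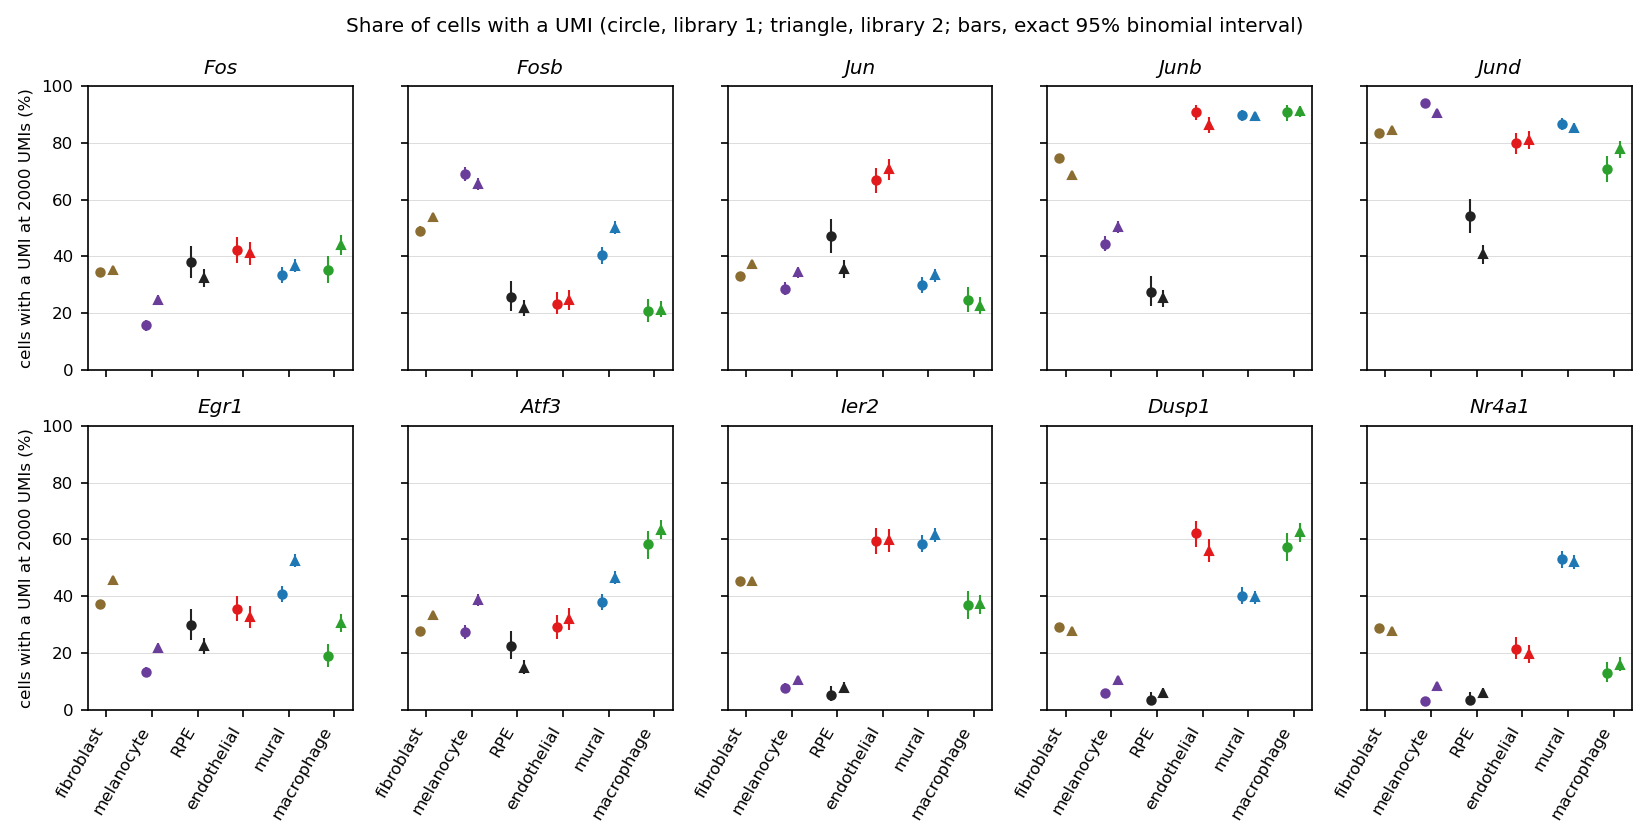
Share of cells with at least 1 UMI of each gene after thinning to 2000 UMIs, circles for library 1 and triangles for library 2, with exact (Clopper-Pearson) 95% intervals that cover counting error only. Jund is found in 40.7% to 93.9% of cells in all classes, while Dusp1, Ier2 and Nr4a1 are found in at most 10.5% of melanocyte-like and RPE-like cells.

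Most cells outside the RPE-like class carried several of the 10 transcripts. The median number of the 10 genes found per cell at 2000 UMIs was 3 in melanocyte-like cells and 4 or 5 in fibroblast-like, mural-like, endothelial-like and macrophage-like cells. Cells with none of the 10 made up between 0.295% and 3.23% of those 5 classes. In RPE-like cells they made up 29.8% (exact 95% interval 24.7 to 35.4%) and 40.5% (37.2 to 43.9%), and the median number found was 3 and 1. Cells with at least 8 of the 10 made up 14.6% of mural-like, 12.04% of endothelial-like, 9.55% of fibroblast-like, 6.38% of macrophage-like, 2.33% of melanocyte-like and 1.86% of RPE-like cells. Together the 10 genes took 0.943% ± 0.058 (SD, n = 2) of UMIs in mural-like cells and 0.317% ± 0.028 in RPE-like cells.

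Within the RPE-like class the summed level moved with the depth of the cell. Cells were divided into terciles by UMI total, and all were thinned to 2000 UMIs. In library 1 the summed level was 2.86, 7.57 and 9.78 UMIs per cell from the shallowest to the deepest tercile, and in library 2 it was 2.11, 5.80 and 9.91. Cells with none of the 10 fell from 67.7% to 5.05% of the tercile in library 1 and from 67.2% to 14.3% in library 2. The deepest tercile was above the shallowest for 8 of 10 genes in library 1, with Dusp1 and Nr4a1 equal, and for 10 of 10 in library 2. The ratio of deepest to shallowest tercile was 3.42 and 4.69 in RPE-like cells and between 0.656 and 1.16 in the other 5 classes. By gene, the deepest tercile was lower for 8 and 9 of 10 in fibroblast-like cells and higher for 7 and 9 in melanocyte-like cells. Junb in fibroblast-like cells went from 7.90 to 2.61 and from 5.81 to 1.76 UMIs. The sum of the 4 further RPE markers, most of it Ttr, went the other way, from 170.6 to 134.0 and from 165.4 to 132.8 UMIs per 2000. The median mitochondrial share was 3.84%, 5.28% and 4.38% from the shallowest to the deepest tercile in library 1 and 2.34%, 4.56% and 5.198% in library 2. By tercile of mitochondrial share, the summed level went from 5.76 to 7.15 in library 1 and from 2.40 to 7.82 in library 2. The doublet share was 3.03% and 6.06% in the shallowest and deepest terciles of library 1 and 2.44% and 13.6% in library 2, and the part of either measure in the result was not tested. Leaving out the barcodes of mixed class kept only 23 and 78 RPE-like cells, with median depths of 3933 and 2788 UMIs. In those, 8 of 10 genes were called lower and none higher, where 2679 and 1713 of the 14136 genes tested were. Counts were near the floor for some: the 23 cells of library 1 held 0 UMIs of Ier2 and Nr4a1 and 1 of Dusp1. Atf3 (-2.42), Jund (-1.79) and Fosb (-1.69) joined the 4 called in all RPE-like cells, and Fos turned to -1.02 (edgeR adjusted p 0.00209) from 0.42. With all cells thinned before summing, Atf3 was called lower as well (-1.14).

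**Figure D4:**
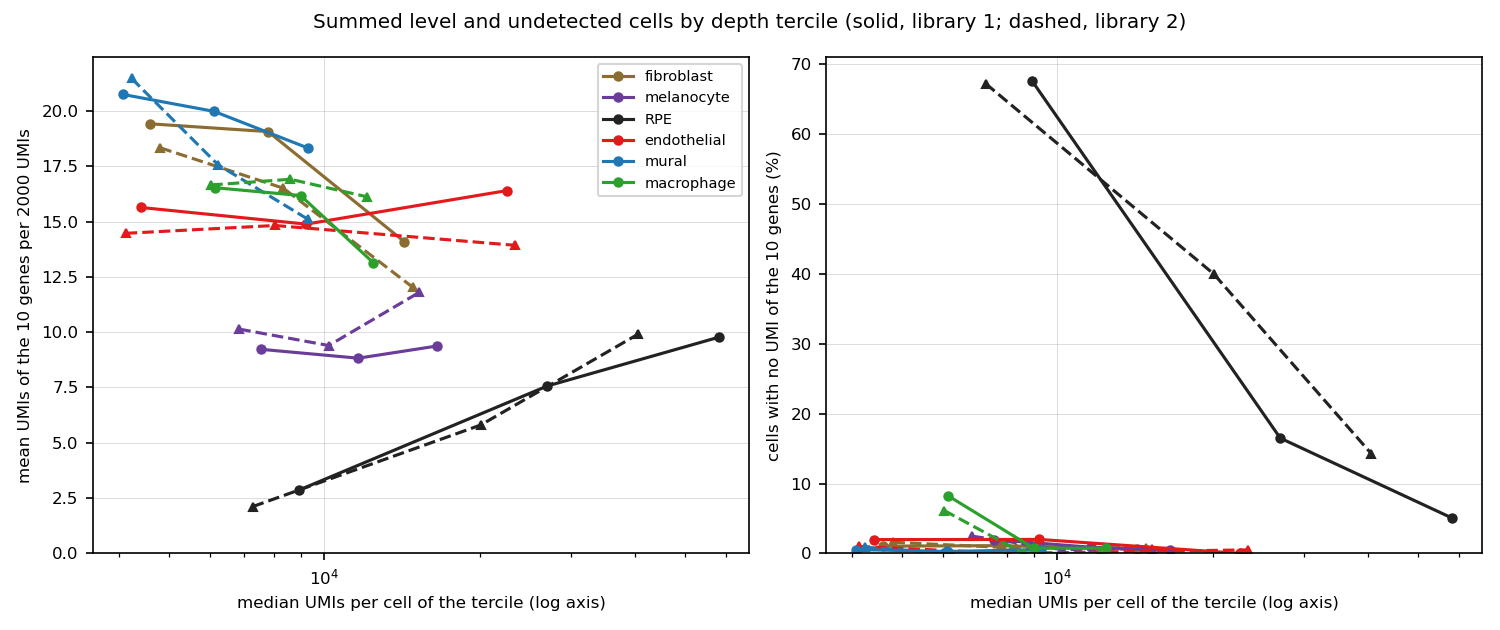
Mean summed UMIs of the 10 genes per 2000 UMIs (left) and percent of cells with none of them (right) against the median depth of each tercile (log axis), solid for library 1 and dashed for library 2. RPE-like cells climb from 2.86 to 9.78 and from 2.11 to 9.91, with no other class showing a ratio above 1.16.

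The genes also differed in how evenly they were spread over the cells of a class. The Fano factor, variance over mean at 2000 UMIs, is 1 for transcripts spread at random. For Fos in fibroblast-like cells it was 27.4 and 26.0, against 4.22 to 13.6 in the other classes. The median fibroblast-like cell had 0 Fos UMIs, the highest had 99 and 134, and the top 10% of cells held 83.6% and 82.2% of all Fos UMIs. In melanocyte-like cells the top 10% held 90.3% and 82.0%, at a lower level. Junb in fibroblast-like cells had Fano factors of 12.3 and 7.43. For Jund the top 10% of cells held 25.4% ± 0.64 (SD, n = 2) of the UMIs in melanocyte-like cells and 31.95% to 46.2% on average in the other classes. Fano factors and top shares depend on the level of a gene. At 2000 UMIs the mean of Fos was 2.40 and 2.08 UMIs in fibroblast-like cells and 0.579 to 1.52 in the other classes, and the part of level in the difference was not tested.

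**Figure D5:**
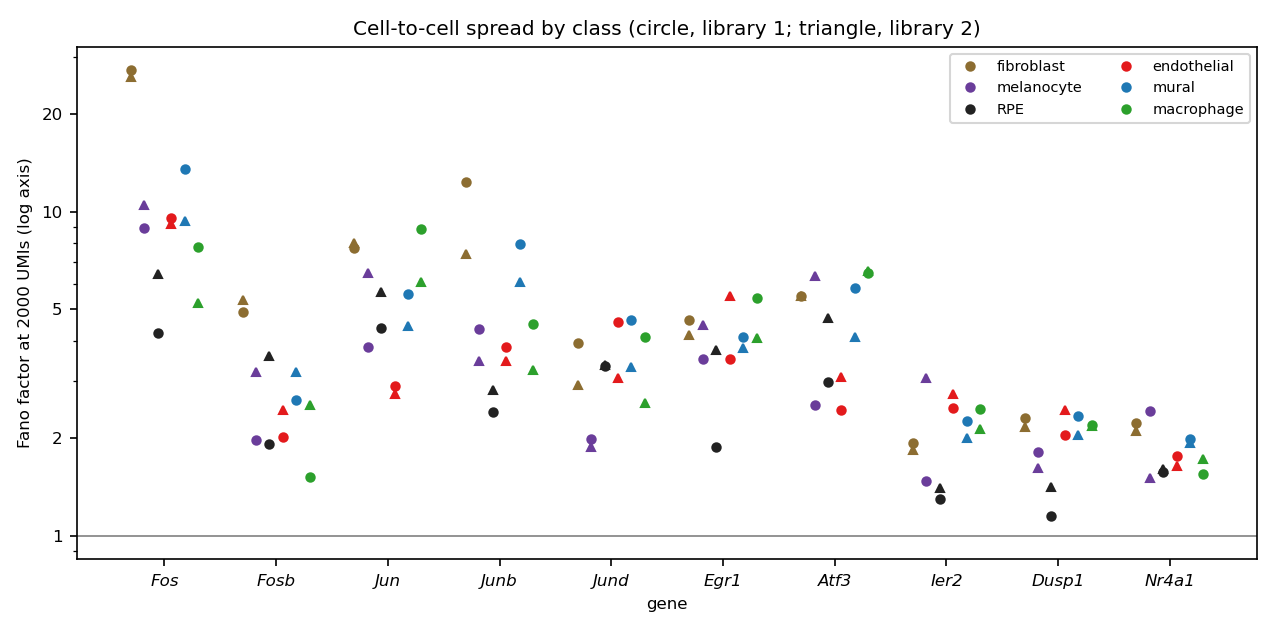
Fano factor of each gene at 2000 UMIs (log axis, grey line at 1) in the 6 classes, circles for library 1 and triangles for library 2. Fos in fibroblast-like cells stands at 27.4 and 26.0, above its values of 4.22 to 13.6 in the other classes.

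Across the cells of a class, the strongest average pairing was Fos with Egr1, at a mean Spearman rho of 0.363 over the 12 class and library groups (0.209 to 0.588). Fos with Jun followed at 0.335 (0.130 to 0.663) and Junb with Egr1 at 0.326. The weakest was Fosb with Dusp1 at 0.040. The median over the 45 pairs was 0.101 to 0.180 in all groups but RPE-like cells of library 2, where it was 0.297. These rhos describe thinned counts of cells that share a library and carry no test.

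By the median ratio of the 10 genes, the libraries lay furthest apart in melanocyte-like cells. There 7 of 10 genes were higher in library 2, with a median ratio of 1.51 and ratios of 1.73 for Fos and 1.93 for Nr4a1, where all genes above 10 CPM had a median ratio of 0.927. In fibroblast-like cells 1 of 10 was higher in library 2, with a median ratio of 0.788 against 0.975 for all genes. Markers of RPE also moved between the melanocyte-like classes: the sum of Ttr, Best1, Lrat and Rdh5 was 329 and 2330 CPM before TMM scaling. Without barcodes of mixed class those sums were 231 and 334, and Fos stood at 233 and 438 CPM on that scale, against 282 and 584 in all melanocyte-like cells. The part of RPE transcripts in the library difference was not tested.

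A further 74 genes of the pathway were read from 4 lists, and all were tested. Of 16 other immediate early transcription factors, 11 were called lower and 0 higher among RPE-like cells, and 10 and 0 among melanocyte-like cells. Fibroblast-like cells showed 9 raised and 0 lowered, mural-like cells 6 and 0, endothelial-like cells 6 and 1, and macrophage-like cells 4 and 3. Of 28 feedback regulators and other early genes, 21 were called lower and 0 higher among RPE-like cells, and 16 and 1 among melanocyte-like cells. The counts raised and lowered were 14 and 4 for macrophage-like, 10 and 2 for endothelial-like, 9 and 2 for mural-like and 7 and 2 for fibroblast-like cells. The median log2 difference of that list was -2.29 in RPE-like cells, where it was -0.07 over all genes. Among all genes, 24.6% were lower in RPE-like and 11.3% in melanocyte-like cells, and 18.2% were higher in fibroblast-like and 19.5% in macrophage-like cells. In endothelial-like and mural-like cells 15.4% and 14.6% of all genes were higher, and in RPE-like and melanocyte-like cells 26.1% and 14.5%. Lower were 21.3% in macrophage-like, 20.8% in endothelial-like, 10.4% in mural-like and 8.74% in fibroblast-like cells.

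Klf2, a flow-responsive factor of endothelium, led the first list at 789 and 574 CPM in endothelial-like cells against 13.0 and 26.7 in RPE-like cells (log2 difference 2.74 ± 0.27, edgeR adjusted p 0.000104). Egr3 was highest in endothelial-like cells (60.3 and 53.1 CPM) and Egr2 in macrophage-like cells (39.8 and 63.4 CPM). Dusp2, a MAP kinase phosphatase of immune cells, stood at 835 and 722 CPM in macrophage-like cells and 4.07 and 3.58 in RPE-like cells (5.69 ± 0.13). Tnfaip3, an inhibitor of NF-kappaB signalling, was likewise macrophage-high (447 and 556 CPM), and Ccn2, a matricellular target of YAP and SRF, fibroblast-high (2149 and 2331 CPM).

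Of the 14 heat shock genes 3 were higher in fibroblast-like cells (Hspb1, Hsph1, Bag3), where 18.2% of all genes were. Endothelial-like and mural-like cells each had 1 higher (Hspb1 in both), beside 15.4% and 14.6%. Melanocyte-like cells had 1 lower (Hsph1, beside 11.3%) and macrophage-like cells 2 (Hspb1, Bag3, beside 21.3%). RPE-like cells had 1 higher (Hsp90aa1, beside 26.1%) and 3 lower (Hspb1, Hsph1 and Bag3, beside 24.6%). Hsph1, a chaperone of the HSP110 family, stood at 441 and 578 CPM in fibroblast-like cells and 40.0 and 99.6 in RPE-like cells, and Bag3, a co-chaperone, at 265 and 244 CPM in fibroblast-like cells. Hspa1b, an inducible HSP70, was highest in mural-like cells at 764 and 499 CPM without passing the test (edgeR adjusted p 0.253).

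Of 16 upstream kinases and factors, 3 were higher in endothelial-like cells (Elk3, Elk4, Mrtfb) and 5 lower in RPE-like cells (Elk3, Elk4, Mrtfa, Mrtfb, Rela), where 15.4% and 24.6% of all genes were. Mural-like cells had 2 raised and 1 lowered, beside 14.6% and 10.4% of all genes, and macrophage-like cells 2 and 2, beside 19.5% and 21.3%. Fibroblast-like cells had 0 of either, beside 18.2% and 8.74%, and melanocyte-like cells 0, beside 14.5% and 11.3%. Mrtfb, a coactivator of SRF, stood at 178 and 186 CPM in endothelial-like cells and 4.53 and 6.71 in RPE-like cells (3.35 ± 0.11). Elk3, an SRF partner, stood at 132 and 117 CPM in endothelial-like cells and 7.56 and 8.42 in RPE-like cells, and Elk4 at 66.7 and 86.5 against 11.9 and 18.8 CPM.

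Across cells, genes whose level closely resembled the sum of the 10 included Zfp36, Ppp1r15a, Btg2, Gadd45b, Ccnl1, Cebpb, Hspa1a, Socs3 and Hspa1b. Their Pearson r with the summed level, averaged over the 12 class and library groups among 3775 genes, ran from 0.50 for Zfp36, which encodes an mRNA-destabilising protein, to 0.38 for Hspa1b. Of these 9, 8 belong to the lists above and Ccnl1 does not. The lists were chosen with earlier results of these data known, and the share of listed genes among the 3775 is not given here. Over the 12 class and library values, the closest were Rbbp4 (r = 0.967), Ube2b, Ccdc86, Fam133b and Emg1 (0.941). Those 12 values share 2 libraries and the r carries no test.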

How the data were processed

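The authors' deposited matrices give raw UMI counts per gene and barcode for 2 libraries of choroid-RPE cells. They are Cell Ranger output: the matrices carry version 4 per the file headers, whereas the submitters' processing notes list 2.1.1 along with mm10. No source used here names the gene annotation. The matrices are unfiltered, so barcodes were chosen by the rule given in the report. Counts were summed per class and library and tested with edgeR 4.0.16 (R 4.3.3: TMM, filterByExpr, robust quasi-likelihood fit, library as a block, 5 residual degrees of freedom), each class against the other 5 with equal weights. The fit was tested on simulated data. Shares, spread and Spearman correlations used cells thinned without replacement to 2000 UMIs. Doublets were called with Scrublet in scanpy 1.11.5 and kept. Free RNA was read from barcodes with at most 100 UMIs.

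The genes and lists were chosen with earlier results of these data known. The text names all 10 genes, from each of the 4 lists the 3 genes with the largest range between classes and the same highest class in both libraries, the 5 genes most alike over classes and the 10 most alike across cells, 1 of which is not reported here. Heat shock and upstream genes that passed the test are also named, chosen after their values were seen. Gene positions are from GENCODE M21 (GRCm38), in which 10 of 10 genes matched by identifier. Classes of 1 library come from the same pooled mice, which is where the block comes from.

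Alternatives were DESeq2 1.42.0, no TMM, no count filter, no replicate block, each library left out, other limits on UMIs, mitochondrial share and class genes, mixed barcodes or doublets left out, free RNA subtracted, other thinning depths and, added after seeing the data, cells thinned before summing.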

Additional observations from a re-analysis of the deposited data

How the results depend on the processing

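Of 720 gene and class differences recomputed over the 12 alternatives with a test, 695 kept direction and side of the threshold, 7 lost the call, 17 gained it and 1 reversed: Fos in RPE-like cells, -1.02 without barcodes of mixed class. DESeq2, no count filter, 500 or 2000 UMIs per barcode, 10 class UMIs and subtraction of free RNA changed none of the 60. With no replicate block the counts of called genes also stayed, for example 5 lower in melanocyte-like and 4 lower in RPE-like cells, so the pairing by library changed no call. With 1 library left out no residual degrees of freedom remained, so those are values with no test and not counted above. Genes called higher in fibroblast-like cells were 5 without mixed barcodes, 2 without doublets and 3 with cells thinned before summing. That thinning was chosen after seeing the data. Of all genes tested, 3230 of 14136, 3133 of 15321 and 2237 of 12108 were higher under these 3 settings. In RPE-like cells 0 were higher without mixed barcodes and 0 with thinned cells, beside 1713 of 14136 and 2932 of 12108 genes tested. There 8 were lower without mixed barcodes and 5 with thinned cells (Atf3 added), beside 2679 of 14136 and 2779 of 12108. In melanocyte-like cells 6 were lower with at most 10% mitochondrial UMIs and with thinned cells (Fos added). Of all genes tested, 1831 of 15369 and 1312 of 12108 were lower there. In endothelial-like cells 1 was lower without TMM, with at most 10% mitochondrial UMIs, without mixed barcodes and with thinned cells, Atf3 being lost each time. Of all genes tested, 2766 of 15420, 3183 of 15369, 2009 of 14136 and 1990 of 12108 were lower under these settings. Endothelial-like cells had 3 higher without mixed barcodes (Nr4a1 added), beside 2668 of 14136. In mural-like cells 5 were higher without mixed barcodes and 4 without doublets (Dusp1 added), beside 2724 of 14136 and 2575 of 15321. The cause of these changes was not tested. Without TMM Ier2 in macrophage-like cells fell short of a call at 0.79. The mean share of cells with a UMI depends on depth: unthinned it was 70.3, 53.7, 45.9, 74.1, 73.6 and 61.8% in fibroblast-like, melanocyte-like, RPE-like, endothelial-like, mural-like and macrophage-like cells, and thinned to 1000 UMIs 32.8, 24.2, 15.7, 36.5, 38.9 and 31.6%. Without mixed barcodes it was 11.2% in RPE-like and 50.0% in endothelial-like cells.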

Other observations

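Barcodes that passed the limits but were put in no class numbered 678 and 784, with median depths of 3739 and 3679 UMIs. Of these, 7 and 12 were ties between classes at 5 or more UMIs, and the others reached 5 UMIs of no class. In them Junb stood at 2038 and 1385 CPM before TMM scaling, Fos at 570 and 667, Jun at 507 and 694, Fosb at 196 and 278, and Dusp1 at 227 and 230. Their Fosb values lay below those of the fibroblast-like, melanocyte-like and mural-like classes in both libraries on the same unscaled measure.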
